A study of Mus musculus with 2 samples.

Results

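The hepatocyte chemokines are 10 genes that encode secreted or shed attractants of white blood cells, namely Ccl2, Ccl5, Ccl7, Ccl20, Cxcl1, Cxcl2, Cxcl5, Cxcl9, Cxcl10 and Cxcl16. They were chosen by gene symbol as CC and CXC chemokines that hepatocytes can make when stimulated, and all 10 are present among the 35129 gene symbols of the series. The choice was made with earlier results of these data known. RNA sequencing was done on primary hepatocytes of C57BL/6 mice that had received an adenovirus for the transcription factor KLF14 (Ad-KLF14) or a control adenovirus (Ad-GFP), with 1 library in each group. The labels call the control GFP, whereas the series' design text speaks of an empty vector. Both groups had been infected with an adenovirus, so there is no uninfected library to set them against. The virus dose, the time after infection and the age of the mice are not given in the sources used here. With 1 library a group there are no replicates and no test between the conditions, and each difference describes these 2 libraries.

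Chemokines are small proteins that bind to proteoglycans near the cell that secretes them and attract cells carrying a matching G protein-coupled receptor. The CC and CXC classes are named for the spacing of their first cysteines. Stressed or infected hepatocytes, like the Kupffer cells and endothelium around them, make chemokines under the control of NF-kB, and the chemokines that bind CXCR3 also respond to interferons through the IRF factors and others. Many chemokine mRNAs are short-lived because proteins that bind AU-rich stretches in their 3′ untranslated region speed up their decay.

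The values are FPKM, which divides reads by gene length and library size, so levels of different genes can be set side by side. The reads behind the values were recovered from their steps, with totals of 11151711 for Ad-KLF14 and 11311344 for Ad-GFP. The intervals below are 95% Clopper-Pearson intervals of a ratio, or exact Poisson intervals of a level, and cover counting error only. They say nothing of the spread between cultures. Klf14 was at 13164 FPKM with Ad-KLF14 and at 0.298 FPKM with Ad-GFP, matching the labels, and albumin, Alb, at 4172 and 5115 FPKM. All 10 chemokines passed the filter of a mean of at least 1 FPKM, which 12419 genes passed.

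Of the 10 chemokines, 9 were lower and 1 was higher with Ad-KLF14, but the sizes ran from a 13.8-fold difference to almost none. Over all 12419 kept genes, 6420 were lower and 5999 higher. Counting intervals held 1 for Cxcl2, Cxcl5 and Cxcl16, which were among the lower members, and for Ccl5, the higher one. The Cxcl16 interval rests on the smallest reads that fit and may be too wide, so whether Cxcl16 differed was not settled. On log2(FPKM + 1), 4 members were at least 2-fold lower, namely Ccl20, Ccl2, Ccl7 and Cxcl10, and 0 were at least 2-fold higher. Over all kept genes the share that was 2-fold or more lower was 8.99%, and the share 2-fold or more higher was 6.37%. The median log2 difference of the members was −0.65, beside −0.03 over all kept genes. Since the members were chosen with earlier results known, these contrasts are descriptive only. Summed over the 10 members, the level was 656 FPKM with Ad-KLF14 and 1357 FPKM with Ad-GFP, a ratio of 0.483. Without Ccl2 the sum was 539 FPKM with Ad-KLF14 and 881 FPKM with Ad-GFP, a ratio of 0.612. In bulk RNA, fewer cells of a type and less RNA per cell cannot be told apart.

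**Figure D1:**
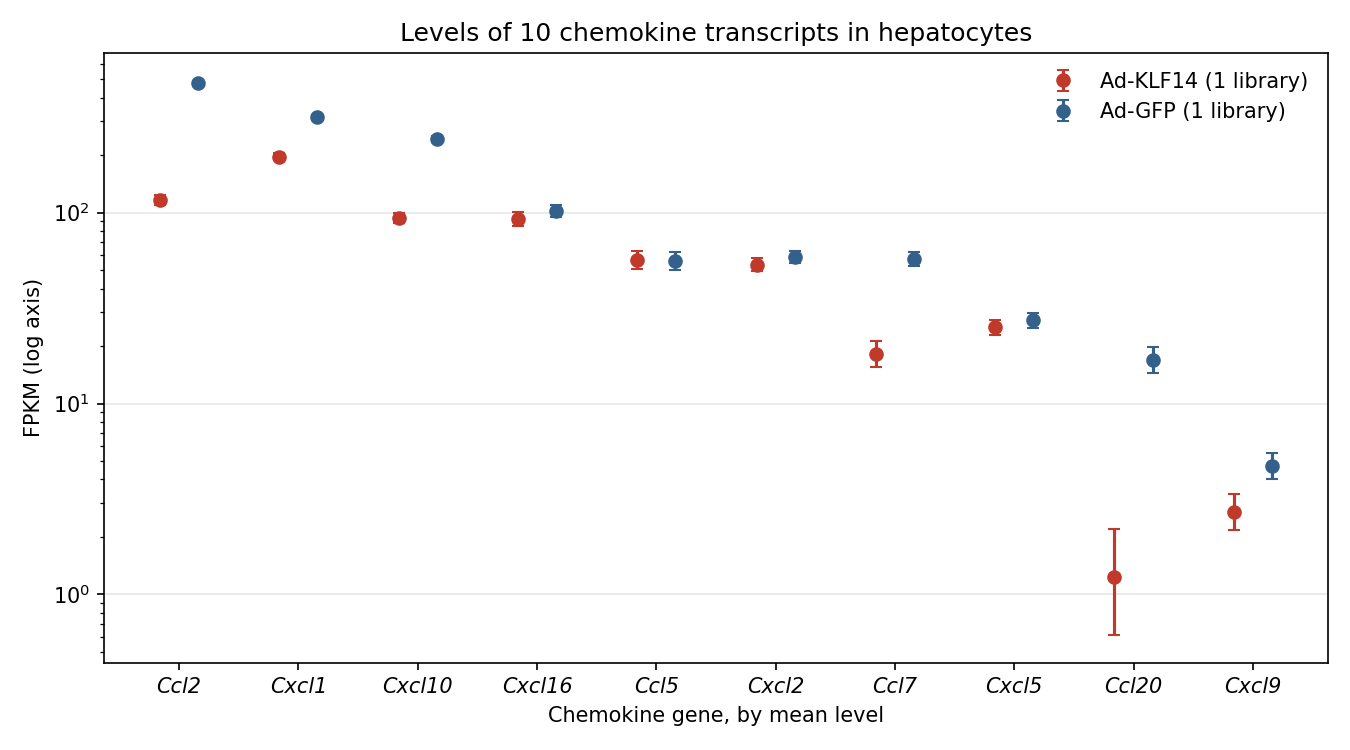
Level of each of the 10 chemokine transcripts in FPKM on a log axis, with Ad-KLF14 left of Ad-GFP for each gene and bars for the 95% counting interval of the 1 library. Ccl2, Cxcl10, Ccl7 and Ccl20 are well apart, while Ccl5, Cxcl2, Cxcl5 and Cxcl16 lie close together in both libraries.

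The order of the levels differed between the libraries. With Ad-KLF14 the highest member was Cxcl1 at 196 FPKM, followed by Ccl2 at 116, Cxcl10 at 93.6, Cxcl16 at 92.6, Ccl5 at 56.6, Cxcl2 at 53.3, Cxcl5 at 25.1, Ccl7 at 18.1, Cxcl9 at 2.72 and Ccl20 at 1.23 FPKM. With Ad-GFP it was Ccl2 at 476 FPKM, followed by Cxcl1 at 315, Cxcl10 at 243, Cxcl16 at 102, Cxcl2 at 58.8, Ccl7 at 57.2, Ccl5 at 56.0, Cxcl5 at 27.2, Ccl20 at 17.0 and Cxcl9 at 4.72 FPKM. Counting intervals overlapped between the neighbours Cxcl10 and Cxcl16, Ccl5 and Cxcl2, and Cxcl9 and Ccl20 with Ad-KLF14, and among Cxcl2, Ccl7 and Ccl5 with Ad-GFP. All other neighbours in either order were apart. Ccl2 alone made up 17.8% of the summed level with Ad-KLF14 and 35.1% with Ad-GFP, whereas Cxcl16 made up 14.1% and 7.50%.

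**Figure D2:**
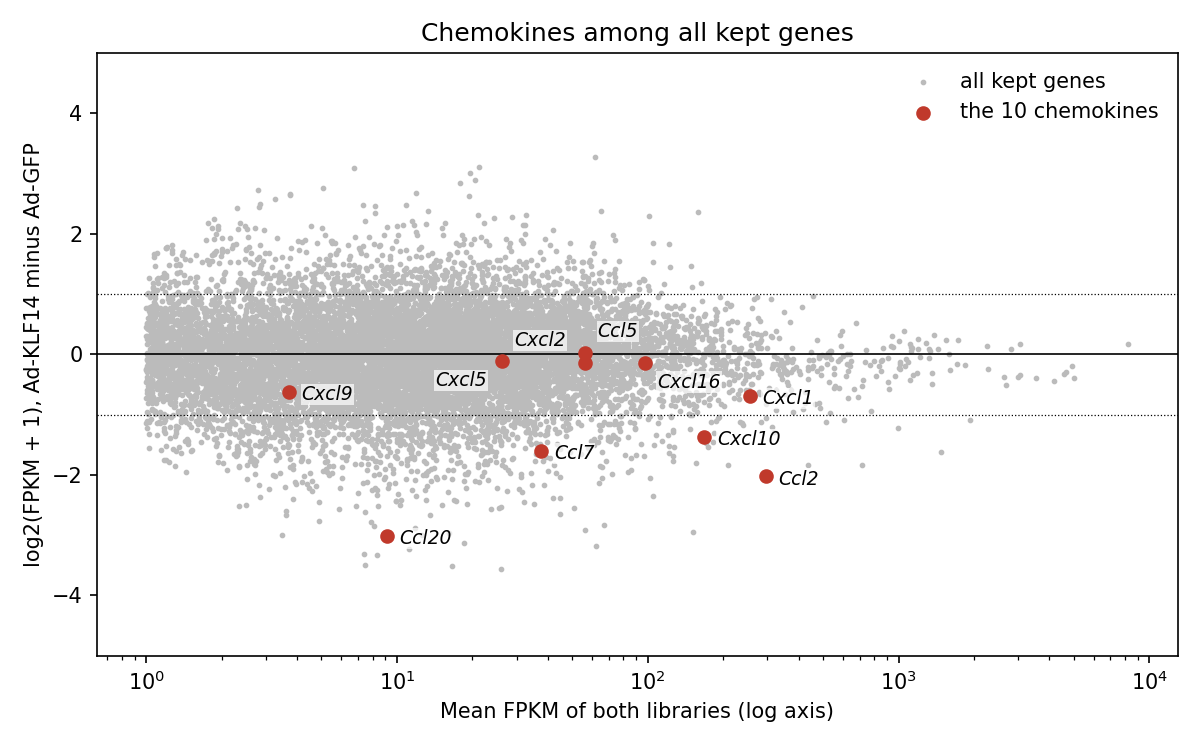
Difference on log2(FPKM + 1), Ad-KLF14 minus Ad-GFP, against the mean FPKM of both libraries on a log axis for all 12419 kept genes (grey; 2 genes lie outside the plotted range) and the 10 chemokines (red). Dotted lines mark 2-fold, and Ccl20, Ccl2, Ccl7 and Cxcl10 lie below the lower one.

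Ccl2 and Ccl7 attract monocytes through CCR2, and both were several-fold lower. Ccl2 was at 116 FPKM from 1047 reads with Ad-KLF14 and at 476 FPKM from 4341 reads with Ad-GFP, which is 4.09-fold lower (counting interval 3.82 to 4.38). This put it at rank 611 of the kept genes with Ad-KLF14 and at rank 124 with Ad-GFP. Ccl7 was at 18.1 FPKM from 162 reads with Ad-KLF14 and at 57.2 FPKM from 518 reads with Ad-GFP, 3.15-fold lower (interval 2.64 to 3.78). The intervals of the 2 ratios did not overlap, and the level of Ccl2 was 6.42 times that of Ccl7 with Ad-KLF14 and 8.33 times with Ad-GFP. In RefSeq's order of protein-coding genes (GRCm38.p6) Ccl2 and Ccl7 are direct neighbours on chromosome 11. Ccl12, another ligand of CCR2 in the same cluster, was low in both libraries, at 2.01 FPKM with Ad-KLF14 and 1.15 FPKM with Ad-GFP, and the interval of its ratio of 1.74 ran from 0.631 to 5.21.

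Ccl20, the ligand of CCR6, which dendritic cells and IL-17-producing T cells carry, had the lowest ratio of the members. It was at 1.23 FPKM from 11 reads with Ad-KLF14 and at 17.0 FPKM from 154 reads with Ad-GFP, 13.8-fold lower (interval 7.50 to 28.2). The low number of reads with Ad-KLF14 makes this interval wide, but its near end lies beyond the ratios of all other members. With a pseudocount of 5 FPKM the log2 difference of Ccl20 was −1.82, and with 0.1 FPKM it was −3.68.

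The ligands of CXCR2, the neutrophil receptor, differed in their ratios. Cxcl1 was at 196 FPKM with Ad-KLF14 and at 315 FPKM with Ad-GFP, 1.61-fold lower (interval 1.52 to 1.70). Cxcl2 was at 53.3 FPKM with Ad-KLF14 and 58.8 FPKM with Ad-GFP, with a ratio of 0.907 whose interval of 0.814 to 1.01 held 1. Cxcl5 was at 25.1 and 27.2 FPKM, a ratio of 0.923 (interval 0.812 to 1.05), so that neither gene showed a difference detectable at this depth. Cxcl3, a close relative outside the 10 members, was at 38.3 FPKM with Ad-KLF14 and 124 FPKM with Ad-GFP, 3.24-fold lower (interval 2.91 to 3.62). All of these genes lie in 1 cluster on chromosome 5, where Cxcl1 and Cxcl2 are direct neighbours. The longest stretch shared by a transcript of Cxcl2 and one of Cxcl3 was 110 bases in GENCODE M21, against 23 for Cxcl1 with either, and how reads with several matches were counted is not given in the sources used here. The separate values of Cxcl2 and Cxcl3 are therefore uncertain.

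The ligands of CXCR3, which activated T and NK cells carry, were lower in each case. Cxcl10 was at 93.6 FPKM from 1110 reads with Ad-KLF14 and at 243 FPKM from 2923 reads with Ad-GFP, 2.60-fold lower (interval 2.42 to 2.78). Cxcl9, which depends on interferon gamma more than Cxcl10 does, was at 2.72 FPKM with Ad-KLF14 and 4.72 FPKM with Ad-GFP, 1.74-fold lower (interval 1.33 to 2.28). The level of Cxcl10 was 34.5 times that of Cxcl9 with Ad-KLF14 and 51.5 times with Ad-GFP. Cxcl11, outside the 10 members, was at 1.58 and 5.57 FPKM from at least 14 and 50 reads, 3.52-fold lower (interval 1.92 to 6.90). These reads are the smallest that fit, so the interval may be too wide. Art3, whose exons overlap those of Cxcl10 by up to 133 bases on the other strand, was at 0.287 and 0.0565 FPKM.

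Ccl5 and Cxcl16 were close to equal in both libraries. Ccl5, which attracts T cells and monocytes, was at 56.6 FPKM from 336 reads with Ad-KLF14 and at 56.0 FPKM from 337 reads with Ad-GFP, a ratio of 1.01 (interval 0.867 to 1.18). The level of Ccl2 was 2.06 times that of Ccl5 with Ad-KLF14 and 8.50 times with Ad-GFP. Ccl3 and Ccl4, other CC chemokines named after seeing their values, were at 9.53 and 6.11 FPKM with Ad-KLF14 and at 6.49 and 8.44 FPKM with Ad-GFP. Both intervals held 1 with the smallest reads that fit. The implied lengths of 395 and 220 bases fall well short of the nearest transcripts, at 766 and 660 bases. Reads may thus be higher and the intervals narrower, so whether Ccl3 or Ccl4 differed was not settled. Cxcl16, made as a membrane protein and cut free by the protease ADAM10 to attract cells with CXCR6, was at 92.6 FPKM with Ad-KLF14 and 102 FPKM with Ad-GFP, a ratio of 0.909 (interval 0.815 to 1.01). Adam10 itself was at 30.5 and 32.7 FPKM. At least 632 and 705 reads lay behind Cxcl16, a minimum that can only widen the interval. Its implied length of 612 bases falls well short of the nearest transcript, at 1267 bases, so whether Cxcl16 differed was not settled. Exons of Zmynd15 overlap those of Cxcl16 by up to 552 bases on the other strand, and since no source states that strand was used in counting, reads of the 2 genes cannot be told apart there. Zmynd15 was at 20.5 FPKM with Ad-KLF14 and 26.2 FPKM with Ad-GFP.

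**Figure D3:**
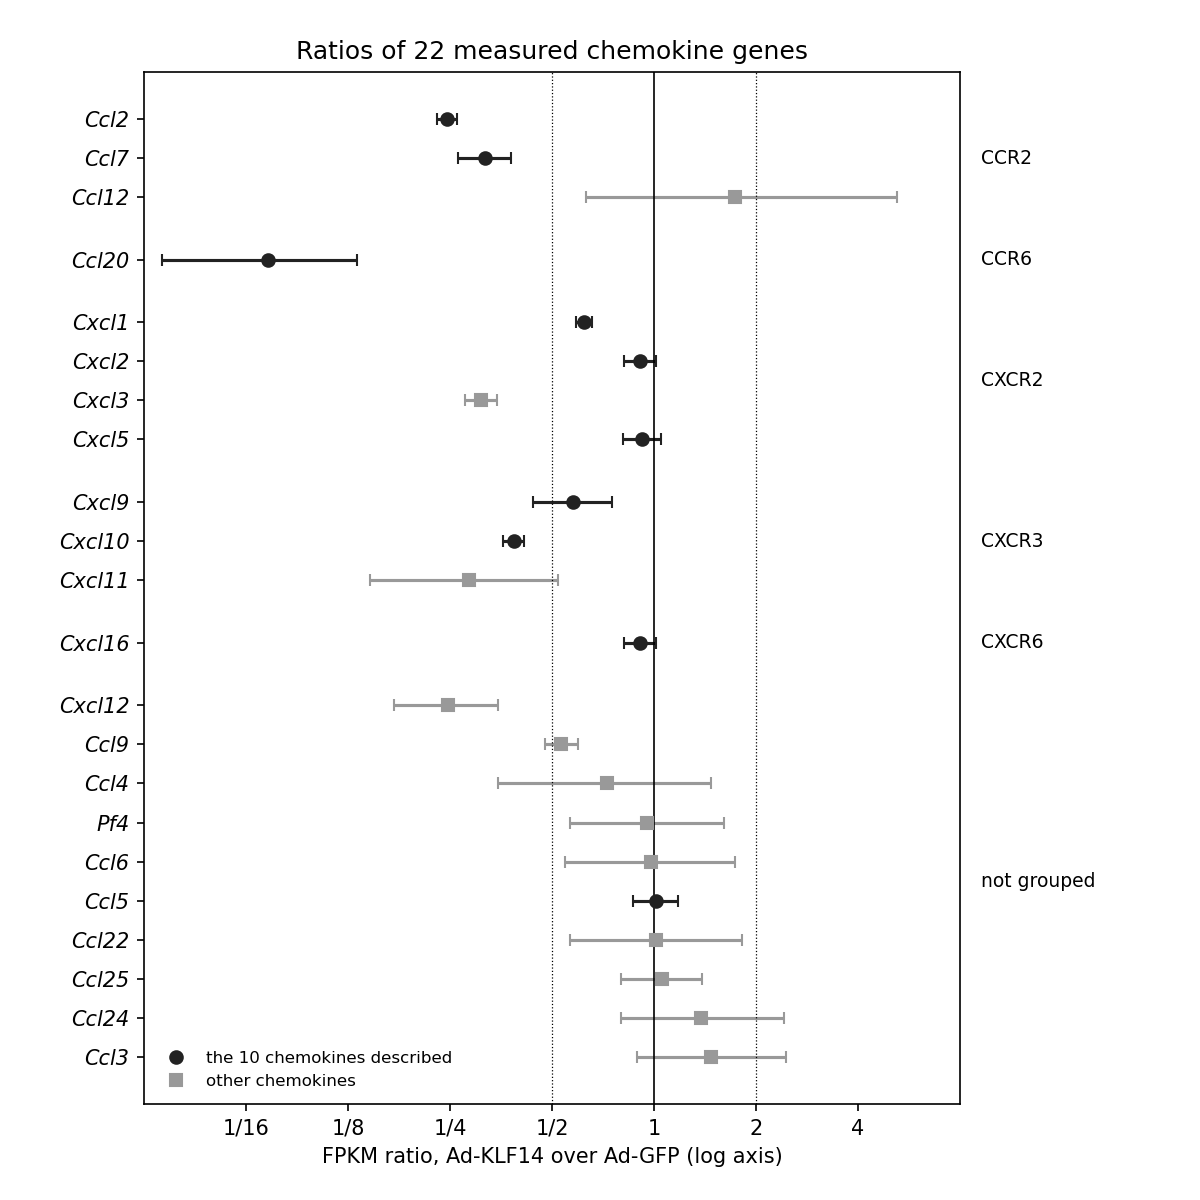
FPKM ratio of Ad-KLF14 over Ad-GFP on a log axis with its 95% counting interval for the 22 chemokine genes that passed the filter, grouped by main receptor where one was assigned (circles, the 10 members; squares, other chemokines). Dotted lines mark 2-fold; Ccl2, Ccl7, Ccl20, Cxcl10, Cxcl3 and Cxcl12 lie left of the lower line with their whole interval.

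Of the 30 other chemokine ligands looked for, 12 passed the filter and 12 were at 0 in both libraries. Among those 12 measured genes 3 were at least 2-fold lower, Cxcl3, Cxcl11 and Cxcl12, and 0 were at least 2-fold higher, with a median log2 difference of −0.05. Cxcl12, which holds blood stem cells and lymphocytes through CXCR4, was at 0.664 FPKM with Ad-KLF14 and 2.70 FPKM with Ad-GFP, 4.06-fold lower (interval 2.88 to 5.83). Ccl9 was 1.88-fold lower (interval 1.68 to 2.10), at 14.04 and 26.3 FPKM. Members included, 7 of the 22 measured chemokines were at least 2-fold lower, beside 8.99% of all kept genes, and 0 at least 2-fold higher, beside 6.37%.

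The promoter windows of 5 of the 10 members, Ccl20, Cxcl1, Cxcl2, Cxcl9 and Cxcl10, could be matched by symbol in the RefSeq table (GRCm38.p6), which gives 250 bases before and 50 after the start of a gene. They were searched on both strands for a strict and a loose form of the kB motif of NF-kB, the interferon-stimulated response element and the AP-1 motif TGANTCA, with N for any base, where the 2 kB forms can overlap each other. Of all 32851 windows, 1.63% held the strict kB form, 20.7% the loose form, 21.3% either, 3.44% the interferon motif and 7.81% the AP-1 motif. Each of the 5 members' windows held a kB motif, and those of Ccl20, Cxcl1 and Cxcl2 held the strict form. The windows printed here were chosen to set the gene with the lowest ratio beside the neighbours Cxcl1 and Cxcl2, which differ in ratio, and the interferon-responsive Cxcl10. The bases run 5′ to 3′ on the gene's strand, and capitals mark all motif matches.
Ccl20: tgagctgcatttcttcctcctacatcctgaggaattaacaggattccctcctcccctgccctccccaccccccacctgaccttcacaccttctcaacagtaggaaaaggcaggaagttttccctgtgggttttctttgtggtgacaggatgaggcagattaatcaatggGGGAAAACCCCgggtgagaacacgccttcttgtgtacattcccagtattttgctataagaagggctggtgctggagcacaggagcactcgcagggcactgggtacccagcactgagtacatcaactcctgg
Cxcl1: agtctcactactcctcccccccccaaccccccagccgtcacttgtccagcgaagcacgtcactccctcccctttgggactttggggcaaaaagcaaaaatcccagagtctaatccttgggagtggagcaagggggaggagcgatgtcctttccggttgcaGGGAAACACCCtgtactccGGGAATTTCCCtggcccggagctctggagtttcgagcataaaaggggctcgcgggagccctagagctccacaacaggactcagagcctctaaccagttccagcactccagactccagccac
Cxcl2: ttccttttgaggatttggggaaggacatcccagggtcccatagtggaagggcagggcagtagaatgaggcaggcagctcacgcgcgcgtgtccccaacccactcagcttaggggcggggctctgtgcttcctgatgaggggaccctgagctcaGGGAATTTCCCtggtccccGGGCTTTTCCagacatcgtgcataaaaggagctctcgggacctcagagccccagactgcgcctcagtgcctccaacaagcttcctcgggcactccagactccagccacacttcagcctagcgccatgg
Cxcl10: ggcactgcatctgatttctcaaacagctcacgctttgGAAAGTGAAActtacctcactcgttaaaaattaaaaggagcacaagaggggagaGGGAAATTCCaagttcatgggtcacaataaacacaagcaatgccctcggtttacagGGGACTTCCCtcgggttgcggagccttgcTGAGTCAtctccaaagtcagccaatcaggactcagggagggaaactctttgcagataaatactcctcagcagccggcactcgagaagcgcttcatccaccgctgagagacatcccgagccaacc

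The Ccl20 window is chr1:83116516-83116815 on the plus strand, and its overlapping kB matches begin 81 and 80 bases before the start. The Cxcl1 window, chr5:90890995-90891294, and the Cxcl2 window, chr5:90903649-90903948, lie on the plus strand. In Cxcl1 the match GGGAATTTCC begins 71 bases before the start, and in Cxcl2 the same 10 bases begin 97 bases before it. The 2 genes share this match, and their ratios were 0.622 and 0.907, the latter uncertain as given above. A link between the match and the ratios was not tested. The Cxcl10 window, chr5:92348840-92349139 on the minus strand, held loose kB matches that begin 159 and 103 bases before the start, the interferon motif on the opposite strand 213 bases before it and an AP-1 match 74 bases before it. None of the other 4 windows held the interferon motif. A match is a description of letters, and binding was not measured in these libraries.

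The 3′ untranslated regions of all 10 members were taken from the GENCODE M21 transcript with the longest one, and the AU-rich pentamer ATTTA and the longer AU-rich nonamer built on it were counted on the sense strand, where a nonamer holds a pentamer. Cxcl2 held 11 pentamers, Ccl20 9 (5 in a shorter transcript), Cxcl1 7, Cxcl5 5, Cxcl9 and Cxcl10 3 each, Ccl7 and Cxcl16 2 each, Ccl2 1 and Ccl5 0. The nonamer was present in Cxcl2, with 4 copies, and Cxcl1, with 2, and in 8.15% of 9899 kept genes with an annotated region. Per 100 bases, Cxcl1 held 1.18 pentamers, Ccl20 0.857 and Cxcl2 0.736, beside a median of 0.133 over those genes. Ccl7 held 0.460, Cxcl5 0.450, Ccl2 0.364 and Cxcl10 0.301. Cxcl16 at 0.141, Cxcl9 at 0.122 and Ccl5 at 0 were near or below that median. In the transcripts nearest in length to that behind the values, chosen after seeing the data, the densities were 1.18 for Cxcl1, 1.11 for Ccl20 and 1.5 for Cxcl2, so that the order of these members depends on the transcript taken. The densest 30 bases of Cxcl1, Cxcl2 and Ccl20, with pentamers in capitals, show these runs beside the single pentamer of Ccl2.
Cxcl1: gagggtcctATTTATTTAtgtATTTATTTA
Cxcl2: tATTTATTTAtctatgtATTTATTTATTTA
Ccl20: tgtaaagatATTTAatgttctgtttATTTA
Ccl2: tgatgccttaattaatattaaacttATTTA

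Of the 8 genes listed as regulators of chemokine mRNA decay 0 were at least 2-fold apart on log2(FPKM + 1) in either direction (8.99% lower and 6.37% higher over all kept genes). Zfp36, whose protein tristetraprolin speeds the decay of such mRNAs, was at 20.3 FPKM with Ad-KLF14 and 13.7 FPKM with Ad-GFP, 1.48-fold higher (interval 1.27 to 1.74). Its relatives Zfp36l2 and Zfp36l1 were 1.42-fold higher and 1.41-fold lower. The RNase gene Zc3h12a was at 7.80 and 11.0 FPKM, and Mapkapk2, a kinase that holds tristetraprolin inactive, was the most abundant of the list at 58.8 and 75.7 FPKM.

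Genes of the NF-kB pathway went in both directions. Of 18 measured genes 3 were on log2(FPKM + 1) 2-fold or more lower (8.99% over all kept genes) and 2 were 2-fold or more higher (6.37%). The median log2 difference was −0.02. The lower genes were the alternative-pathway subunits Nfkb2 (16.2 FPKM with Ad-KLF14, 43.8 FPKM with Ad-GFP; 2.71-fold lower) and Relb (2.18-fold lower) and the atypical IkB protein gene Bcl3 (2.85-fold lower). The higher genes were the subunit Rel, at 8.50 FPKM with Ad-KLF14 and 2.22 FPKM with Ad-GFP, a ratio of 3.82 (interval 2.90 to 5.11), and the inhibitor Nfkbib, at 117 and 30.8 FPKM, a ratio of 3.79 (interval 3.48 to 4.14). Rela, the main activating subunit and the most abundant of the list by the mean of both libraries, was at 72.4 FPKM with Ad-KLF14 and 90.0 FPKM with Ad-GFP.

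Interferon receptor, JAK and IRF genes were mostly lower. The list also holds other transcription factors of the pathway and SOCS inhibitors. Of 17 measured genes 13 were below 0, beside 6420 of all 12419 kept genes, with a median log2 difference of −0.81. On log2(FPKM + 1), 5 of the 17 were 2-fold or more lower (8.99% over all kept genes) and 0 were 2-fold or more higher (6.37%). The interferon receptor genes Ifnar1 (2.83 FPKM with Ad-KLF14, 14.1 FPKM with Ad-GFP; 4.98-fold lower, interval 4.31 to 5.78) and Ifngr2 (2.69-fold lower) were among these 5. So were the kinase gene Jak1 (2.21-fold lower) and the transcription factor genes Irf1 (2.17-fold lower) and Irf7 (2.88-fold lower, at 54.8 and 158 FPKM), the last the most abundant of the list by the mean of both libraries. Named after their values were seen, Socs3, an inhibitor of cytokine signalling, was higher at 16.3 FPKM with Ad-KLF14 and 7.83 FPKM with Ad-GFP, an FPKM ratio of 2.09 (interval 1.67 to 2.62) but a log2(FPKM + 1) difference of 0.97. The other interferon receptor genes Ifngr1 and Ifnar2 were 1.92-fold and 1.85-fold lower, and Irf3 was at 30.6 and 27.9 FPKM.

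The cytokines and sensors upstream of the chemokines were closer to the background. On log2(FPKM + 1), of 18 measured genes 1 was at least 2-fold higher (6.37% over all kept genes) and 0 were at least 2-fold lower (8.99%). The median log2 difference was −0.12. The higher gene was the antiviral adaptor Mavs, at 46.6 FPKM with Ad-KLF14 and 18.3 FPKM with Ad-GFP. The IL-1 receptor accessory protein gene Il1rap was at 2.41 and 5.37 FPKM, 2.23-fold lower as an FPKM ratio (interval 1.80 to 2.78) but a difference of −0.90 on log2(FPKM + 1). Of the same list, the bacterial lipoprotein sensor gene Tlr2 was at 7.48 and 13.7 FPKM and Tnfrsf1b at 19.8 and 34.1 FPKM. Tnfrsf1a, the main TNF receptor gene and the most abundant of the list, was at 60.8 FPKM with Ad-KLF14 and 60.7 FPKM with Ad-GFP. Named after their values were seen, Tnf was at 1.55 and 1.86 FPKM and Il1b at 9.12 and 7.72 FPKM, with intervals of both ratios that held 1, and Ifng was at 0 in both libraries.

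**Figure D4:**
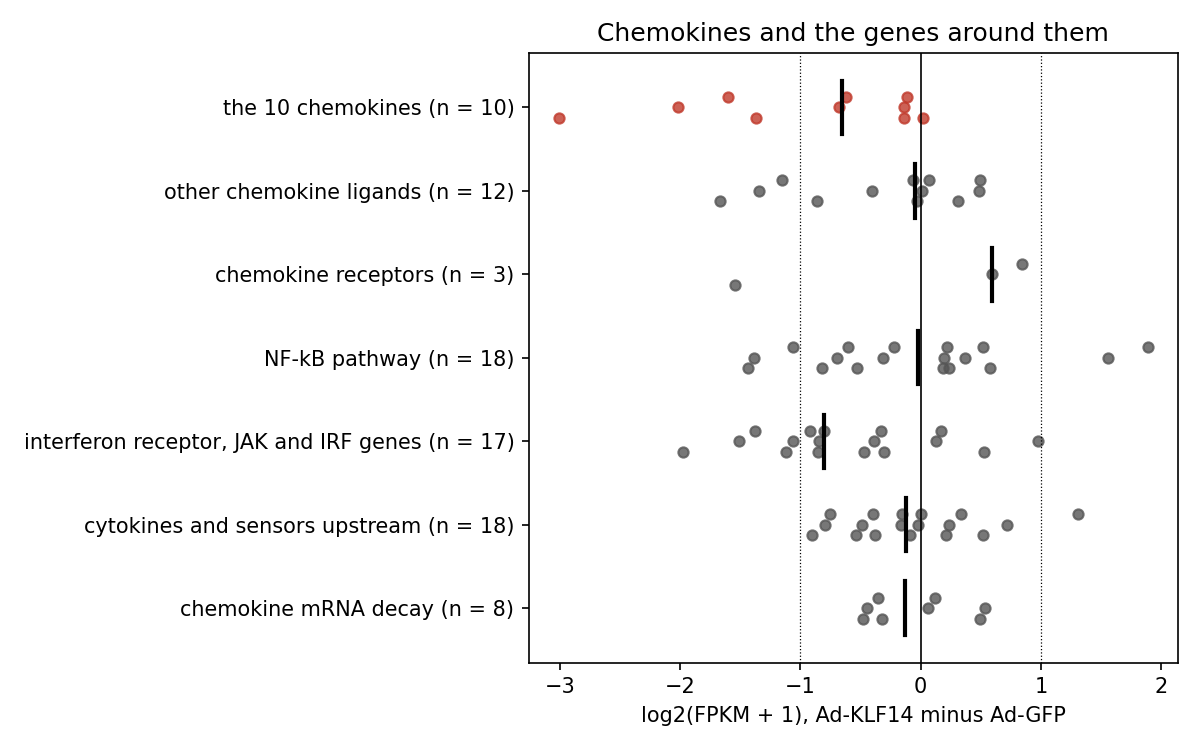
Difference on log2(FPKM + 1), Ad-KLF14 minus Ad-GFP, of each measured gene of the 10 chemokines and 6 lists around them, with a black bar at each list's median. The medians are −0.65 for the 10 chemokines and −0.81 for the interferon receptor, JAK and IRF genes, beside −0.02 for the NF-kB pathway. Not plotted are other genes that NF-kB can induce (median −0.53) and genes whose products process or hold chemokines (median −0.07).

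Most chemokine receptor genes were near 0 in these cultures. Of 22 chemokine receptor genes 19 were below 1 FPKM in both libraries. Ccr2 was at 0.0250 and 0 FPKM, Ccr6 at 0 and 0.10, Cxcr2 at 0.0295 and 0, Cxcr3 at 0 and 0.0550 and Cxcr6 at 0.142 and 0.0467 FPKM, and these 5 were picked after seeing their levels. The 3 genes that passed the filter were Ccrl2, Cxcr4 and Cxcr7. Of these, Cxcr7 alone was at least 2-fold apart on log2(FPKM + 1) (8.99% lower and 6.37% higher over all kept genes). Cxcr7, a scavenger receptor of Cxcl12 now named Ackr3, was at 0.0348 FPKM from 1 read with Ad-KLF14 and at 2.02 FPKM from 59 reads with Ad-GFP, a ratio of 0.0172 (interval 0.000428 to 0.0996). Cxcr4, the signalling receptor of Cxcl12, was at 2.72 and 1.07 FPKM, a ratio of 2.54 (interval 1.52 to 4.37).

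Other cells that make chemokines could be present in such cultures. Of 10 Kupffer cell and macrophage markers 7 passed the filter, and their summed level over all 10 was 424 FPKM with Ad-KLF14 and 444 FPKM with Ad-GFP, with Cd14 at 217 and 306 FPKM and Cd68 at 160 and 71.1 FPKM. These 7 went both ways, 3 down and 4 up with Ad-KLF14, and their median log2 difference was 0.01. Past 2-fold there was 1 gene on each side, Mpeg1 and Cd68 (8.99% lower and 6.37% higher over all kept genes). Mpeg1, a macrophage gene, was at 17.1 FPKM with Ad-KLF14 and 40.1 FPKM with Ad-GFP, 2.34-fold lower (interval 2.15 to 2.54). Cd68 was 2.25-fold higher (interval 2.07 to 2.45), and Emr1, of the same list, 1.47-fold higher (interval 1.14 to 1.91). The Kupffer cell markers Clec4f, Timd4 and Vsig4 were below 1 FPKM in both. Of 6 neutrophil markers 5, and all 8 lymphocyte and all 8 stellate cell and fibroblast markers, were below 1 FPKM in both libraries. The 7 endothelial markers summed to 7.08 and 8.55 FPKM. Of the 3 that passed the filter 1 was at least 2-fold lower (8.99% over all kept genes). This was Oit3, at 0.990 and 3.87 FPKM, 3.91-fold lower (interval 2.60 to 6.05), while Pecam1 was at 2.03 and 1.12 FPKM, 1.81-fold higher (interval 1.23 to 2.71). The 6 bile duct markers summed to 235 FPKM with Ad-KLF14 and 795 FPKM with Ad-GFP, with Spp1 at 191 and 681 FPKM and Cldn4 at 40.8 and 107 FPKM. Sox9 was at 2.88 and 4.26 FPKM. All 3 bile duct markers that passed the filter were lower, with a median log2 difference of −1.37. Of these 3, 2 were at least 2-fold lower (8.99% over all kept genes). Of the defining markers, Krt19 was also lower, at 0.196 and 1.74 FPKM from 3 and 27 reads. Epcam was at 0.392 and 0.257 FPKM, and Krt7 at 0 in both libraries. The part of these marker lists in the chemokine differences was not tested. The 6 hepatocyte markers summed to 4742 FPKM with Ad-KLF14 and 5735 FPKM with Ad-GFP. At least 2-fold apart were 0 of them (8.99% lower and 6.37% higher over all kept genes).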

How the data were processed

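The authors deposited 1 table of FPKM per library, and build mm8 and Bowtie 0.12.2 are named per the submitters' processing notes. Per the labels' protocols, Trizol was used for extraction and an Illumina TruSeq kit for the libraries. Gene models, counting rule and pooling are not given in the sources used here. The design text speaks of triplicates and of retina, so it may in part describe another study.

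The filter kept genes whose mean reached 1 FPKM. Differences (Ad-KLF14 minus Ad-GFP) were taken on log2(FPKM + 1) and are understated in low genes, folds are FPKM ratios, and genes count as apart from 2-fold on. A gene's values step in whole reads, so the FPKM ratio gives a fraction of whole numbers (relative tolerance 1e-11). Library totals were found from 679 genes with equal reads, and reads as the smallest whole pair that gives a whole gene length. This gave reads for 19658 of 19667 genes above 0. Where the implied length falls well short of a transcript's, these reads may be too low and the interval too wide. The implied length was within 5% of a GENCODE M21 transcript for 8 of the 10 chemokines, not for Cxcl5 and Cxcl16. The recovery was tested on simulated data. The intervals were tested there with the simulated reads themselves rather than the recovered ones. That check does not cover intervals from reads recovered too low. With 1 library a group no test was possible.

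The members and 8 further gene lists were chosen with earlier results of these data known. Some genes of these lists are not reported here and were left out of the counts. Named genes are the members, and of each list up to 4 measured genes with the largest absolute log2 difference, all past 2-fold where 6 or fewer were, and the most abundant. Receptor groups and AU-rich counts were added after values were seen. Protein sequences were not used here. Python 3.11.15, pandas 2.3.3, NumPy 2.4.6, SciPy 1.17.1 and matplotlib 3.10.9 were used. Alternatives were pseudocounts of 0.1 and 5 FPKM, a trimmed mean (30% from each end), the upper quartile, removal of the Klf14 share or of a running median over 501 genes, no filter or a filter at 5 FPKM, and folds of 1.5 and 3.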

Additional observations from a re-analysis of the deposited data

How the results depend on the processing

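Ccl2, Ccl7, Ccl20 and Cxcl10 were at least 2-fold lower under all 6 pseudocount and scaling alternatives, with log2 differences between −2.03 and −1.87 for Ccl2, −1.65 and −1.43 for Ccl7, −3.68 and −1.82 for Ccl20, and −1.38 and −1.26 for Cxcl10. All other members but Ccl5 stayed below 0 in these alternatives, and Ccl5 ran from −0.11 with the running median removed to 0.05. The members' median ran from −0.73 to −0.50. Members at least 1.5-fold lower numbered 6 and at least 3-fold lower 3. With a filter at 5 FPKM no chemokine receptor was left. Over all kept genes, those lower and higher numbered 467 and 295 with a pseudocount of 5 FPKM, 2598 and 2079 at 1.5-fold, and 299 and 180 at 3-fold. In the transcript of the length nearest to that behind the values, chosen after seeing the data, Ccl20 held 5 pentamers. No paired analysis was possible because each group holds 1 library. Depth limits Ccl20 most, with 11 reads with Ad-KLF14.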

Other observations

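Other secreted and adhesion genes that NF-kB can induce in hepatocytes were lower in part. Of 11 measured genes 3 were at least 2-fold lower, beside 8.99% of all kept genes, and 0 at least 2-fold higher, with a median log2 difference of −0.53. The growth factor gene of granulocytes and macrophages Csf2 was at 1.48 FPKM from 17 reads with Ad-KLF14 and at 5.91 FPKM from 69 reads with Ad-GFP, 4.0-fold lower (interval 2.33 to 7.26). The adhesion gene Vcam1 was 2.66-fold lower (14.7 and 39.1 FPKM) and the acute phase gene Saa3 2.14-fold lower (386 and 825 FPKM). Icam1, named after its values were seen, was at 160 FPKM with Ad-KLF14 and 118 FPKM with Ad-GFP, a ratio of 1.36 (interval 1.28 to 1.45). Lcn2, an iron carrier of the acute phase and the most abundant of the list, was at 2283 and 2968 FPKM.

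Of 13 measured genes whose products process chemokines or hold them at the cell surface, 1 was 2-fold or more lower and 0 were 2-fold or more higher. Over all kept genes these shares were 8.99% and 6.37%. Sdc1, the main heparan sulfate proteoglycan of the hepatocyte surface, was at 48.5 FPKM with Ad-KLF14 and 108 FPKM with Ad-GFP, 2.23-fold lower (interval 2.11 to 2.37). The glypican genes Gpc1 and Gpc4 were 1.70-fold higher and 1.73-fold lower.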
